A study of Mus musculus with 12 samples.

Results

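The genes described here mark Kupffer cells, the macrophages resident in the liver sinusoids, and other leukocytes. They were taken from a list of 36 named genes, and a probe was assigned to a gene by its RefSeq record. All 36 were on the array, out of 20283 gene symbols, with 46 probes in all. For each gene the probe with the highest mean signal was used. In both channels, 26 of the 36 were above background on all 12 arrays.

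The study asked how molecular hydrogen (H2) alters hepatic gene expression in db/db mice, which lack a working leptin receptor and become obese and diabetic. All mice were male db/db, and the labels give an age of 8 weeks. MgH2, which releases H2 in the stomach, was given by gavage once a day for 1, 3 or 7 days at 0.9 mg/kg by the labels. The paper's figure legend on plasma triglycerides gives the same dose for these times, while its methods give other doses. By the methods Mg(OH)2 was the control. H2-water at 0.8 mM was drunk for 14 days, with degassed water as the control. Every RNA sample was a pool of 3 mice. Each array carried a control pool in Cy3 and a treated pool in Cy5, there were 3 arrays per group, and no array had the dyes swapped. The 14-day arrays lay on a slide of their own and were read with another version of the scanner software than the MgH2 arrays.

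Kupffer cells clear bacteria, immune complexes and worn red cells from portal blood through scavenger, complement and Fc receptors. They depend on colony-stimulating factor 1 and its receptor Csf1r, and the transcription factor PU.1 (Spi1) drives many genes of macrophages. When resident cells are lost or the liver is inflamed, monocytes that carry Ccr2 and Itgam can enter and refill the niche. In whole-liver RNA, fewer cells of a type and less RNA per cell cannot be told apart.

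The tissue label was checked first. The 10 hepatocyte genes examined were above background on 11 or 12 of the 12 arrays each, and the mean signal of Alb, the gene of albumin, was 212000. Markers of resident macrophages were well measured, with a mean signal of 5120 for Cd5l and 2410 for Clec4f. Lymphocyte markers gave a mixed picture. Nkg7, Cd3e, Ccl5 and Cd79b cleared background with either dye on each of the 12 arrays, with mean signals of 829, 488, 139 and 34.2. The other lymphocyte members were mostly at background. The probes of Cd8a and Ms4a1 were above background in neither channel on any array. Cd3d was above background in both channels on 0 of 12 arrays and Cd79a on 3. Of the 7 adipocyte genes, Adipoq, Lep and Plin1 were at background on all 12 arrays, while Car3, Fabp4, Cfd and Retn were above it on all 12, with mean signals from 117 for Retn to 87000 for Car3.

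The promoters of 5 members are shown because these genes were called lower after both 3 and 7 days of MgH2 and held the core motif GAGGAA, which PU.1 recognizes. Each line gives the 250 bases before the start of the gene, 5′ to 3′ on the strand of the gene, from RefSeq on the build GRCm38.p6. The motif on either strand is in capitals (TTCCTC is its reverse complement). The 250 bases of C1qb lie at chr4:136886201-136886450 on the minus strand and those of C1qc at chr4:136892915-136893164 on the minus strand. These genes of complement C1q thus stand in the same stretch of chromosome 4. Those of Laptm5 lie on the same chromosome at chr4:130913066-130913315 on the plus strand. For Cd5l they lie at chr3:87357631-87357880 on the plus strand, and for Vsig4 at chrX:96293439-96293688 on the minus strand.
C1qb: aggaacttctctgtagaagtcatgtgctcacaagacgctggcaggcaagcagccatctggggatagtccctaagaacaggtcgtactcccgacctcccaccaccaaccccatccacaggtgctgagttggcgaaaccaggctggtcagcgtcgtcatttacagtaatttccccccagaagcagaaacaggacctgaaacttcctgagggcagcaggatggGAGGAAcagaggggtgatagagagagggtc
C1qc: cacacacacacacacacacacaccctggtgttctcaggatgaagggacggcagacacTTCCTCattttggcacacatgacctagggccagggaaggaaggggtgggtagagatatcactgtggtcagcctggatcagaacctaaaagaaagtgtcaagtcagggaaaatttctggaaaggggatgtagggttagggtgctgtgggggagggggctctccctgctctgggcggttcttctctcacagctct
Cd5l: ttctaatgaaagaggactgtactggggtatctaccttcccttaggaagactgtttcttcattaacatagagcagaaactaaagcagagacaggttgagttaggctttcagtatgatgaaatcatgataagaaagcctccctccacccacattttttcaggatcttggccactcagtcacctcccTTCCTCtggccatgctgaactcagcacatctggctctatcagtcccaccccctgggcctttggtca
Laptm5: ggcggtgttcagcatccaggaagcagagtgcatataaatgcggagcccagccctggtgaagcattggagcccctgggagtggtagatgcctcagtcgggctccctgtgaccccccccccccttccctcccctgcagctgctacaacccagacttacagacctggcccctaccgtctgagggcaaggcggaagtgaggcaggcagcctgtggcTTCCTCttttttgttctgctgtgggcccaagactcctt
Vsig4: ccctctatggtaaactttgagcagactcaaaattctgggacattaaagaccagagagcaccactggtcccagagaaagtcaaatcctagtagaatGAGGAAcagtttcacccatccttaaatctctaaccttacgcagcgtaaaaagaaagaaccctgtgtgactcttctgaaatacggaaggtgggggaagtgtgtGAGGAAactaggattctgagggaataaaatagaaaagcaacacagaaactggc

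The promoter table held 26 of the 36 members, and 15 of these had the motif within 250 bases before to 50 bases after the start. Among all 32851 promoters of the table, 28.3% had it, and among all genes 31.3%. Of the 8 members in the table that were called lower on both days, 5 had the motif (C1qb, C1qc, Cd5l, Laptm5 and Vsig4). Clec4f, Fcer1g and Mpeg1 had no match in this window. A match is a description of the sequence alone.

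After MgH2 most macrophage members stood below their controls at 3 and 7 days, and the called ones were 1.16- to 1.63-fold lower. After 14 days of H2-water the members lay on both sides of 0. A gene was called at an adjusted P under 0.05 by limma over all tested probes. At 3 days 12 of the 27 members tested were called lower, where 11.1% of all probes were, and 1 was called higher, where 12.3% of all probes were. At 7 days 14 of 27 were called lower (14.2% of all probes) and 0 higher (15.3% of all probes). At 1 day 2 of 27 were called lower (4.23% of all probes) and 0 higher (5.15%). At 14 days of H2-water 1 of 26 was called lower (3.9%) and 0 higher (4.92%).

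The median log2 ratio of the members, treated over control, was −0.095 at 1 day, −0.27 at 3 days, −0.33 at 7 days and −0.00084 at 14 days. Over all probes tested the medians were −0.0033, 0.0022, 0.0059 and −0.0049. Members that lay below 0 on all 3 arrays of a group numbered 10 of 27 at 1 day (22.4% of all probes), 16 of 27 at 3 days (26.3%) and 19 of 27 at 7 days (27.9%). At 14 days they were 3 of 26 (27.7%). By unadjusted P under 0.05, limma gave 6 members lower and 2 higher at 1 day (13.1% and 13.1% of all probes), and 16 lower and 2 higher at 3 days (17.8% and 19%). At 7 days it gave 16 lower and 1 higher (19.9% and 21.4%), and at 14 days 2 lower and 2 higher (12.3% and 12%). At the same threshold the methods' t-test gave 0 members higher at 1, 7 and 14 days, where 7.41%, 7.69% and 4.51% of all probes were higher.

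**Figure D1:**
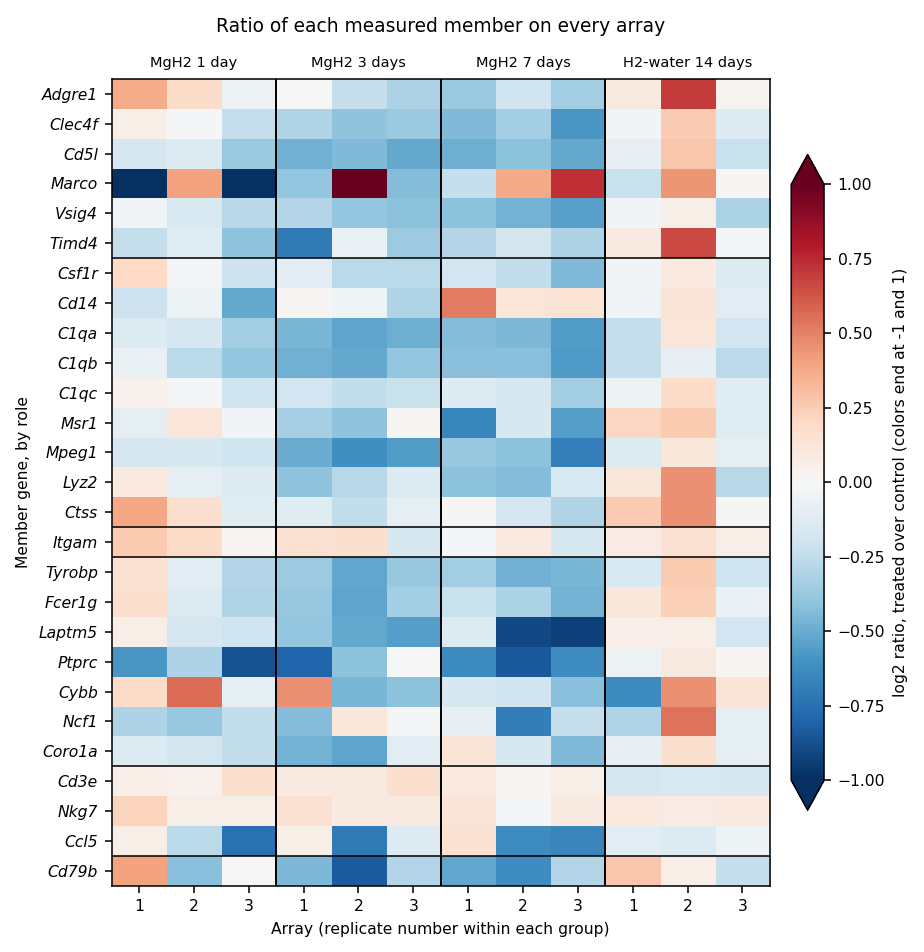
Log2 ratio of treated over control (color) for the 27 members above background on all arrays of the MgH2 groups, in rows grouped by role, on each of the 12 arrays in columns. Most macrophage members are blue at 3 and 7 days, while Marco and Cd14 are mixed at 3 days and mostly red at 7 days. Array 2 of the 14-day group is redder than its partners. Ncf1 was above background on 1 of the 3 arrays at 14 days.

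Among the genes that identify Kupffer cells, Clec4f, a lectin receptor of these cells, had log2 ratios of −0.30, −0.40 and −0.37 at 3 days and of −0.44, −0.34 and −0.58 at 7 days. At 1 day it measured 0.06, −0.01 and −0.24, and at 14 days −0.03, 0.25 and −0.13. No array of 3 or 7 days overlapped with those of 1 or 14 days. The mean was −0.36 (SE 0.0779, n = 3, adjusted P = 0.01) at 3 days and −0.45 (SE 0.0779, adjusted P = 0.0024) at 7 days, a level 1.28- and 1.37-fold lower than in the controls.

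Cd5l, a protein that macrophages secrete into the blood, gave −0.48, −0.44 and −0.51 at 3 days and −0.49, −0.41 and −0.51 at 7 days. The earlier ratios were −0.17, −0.14 and −0.37 at 1 day, and those of H2-water were −0.08, 0.28 and −0.22. Again the 3- and 7-day arrays lay below the other 6. Cd5l was 1.39-fold lower at 3 days (log2 −0.47, SE 0.0798, adjusted P = 0.0033) and 1.38-fold lower at 7 days (−0.47, adjusted P = 0.0022). At 1 day its mean of −0.23 was not called (adjusted P = 0.11), but was called with the replicate number as a block (adjusted P = 0.04).

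Vsig4, the complement receptor that binds C3b-coated particles, measured −0.29, −0.39 and −0.41 at 3 days and −0.41, −0.47 and −0.54 at 7 days. Its ratios were −0.03, −0.15 and −0.28 at 1 day and −0.03, 0.06 and −0.32 at 14 days, so that the third array of 14 days fell among those of 3 days. The mean was −0.36 (SE 0.0693, adjusted P = 0.0059) at 3 days and −0.47 (SE 0.0694, adjusted P = 0.0011) at 7 days.

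The other Kupffer cell genes did not pass the test. Adgre1, an adhesion receptor of macrophages, had 0.00, −0.23 and −0.31 at 3 days and −0.37, −0.20 and −0.35 at 7 days on its brighter probe (adjusted P = 0.33 and 0.085). Its dimmer probe, with a mean signal of 146 against 279, gave −0.63 at 3 days and −0.60 at 7 days and was called at both (adjusted P = 0.00118 and 0.00105), so that the probes of Adgre1 disagreed. Timd4, a receptor for phosphatidylserine on dying cells, averaged −0.38 at 3 days (adjusted P = 0.064) and −0.26 at 7 days (adjusted P = 0.17). With the replicate block Timd4 was called at 3 days (adjusted P = 0.017).

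Marco, a scavenger receptor for bacteria, varied more between the arrays of each MgH2 group than any other Kupffer cell identity gene. Its log2 ratio was −1.21, 0.40 and −1.01 at 1 day, −0.39, 1.58 and −0.43 at 3 days, and −0.23, 0.38 and 0.73 at 7 days. After H2-water it was −0.22, 0.44 and 0.01. The second array was the highest at 1, 3 and 14 days, and no group passed the test (adjusted P from 0.38 to 0.94). Without MgH2 3 days replicate 2 the mean of Marco at 3 days went from 0.25 to −0.41.

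The 3 chains of C1q, the recognition molecule of the classical complement pathway, are made mostly by macrophages. C1qa gave −0.46, −0.53 and −0.49 at 3 days and −0.43, −0.45 and −0.56 at 7 days, against −0.14, −0.17 and −0.35 at 1 day and −0.23, 0.12 and −0.19 at 14 days. C1qb gave −0.48, −0.51 and −0.39 at 3 days and −0.42, −0.42 and −0.57 at 7 days, against −0.07, −0.27 and −0.39 at 1 day and −0.23, −0.08 and −0.26 at 14 days. For C1qa the arrays of 3 and 7 days did not overlap with the rest, and for C1qb the third array of 1 day touched the third of 3 days.

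The means of C1qa were −0.49 (SE 0.066, adjusted P = 0.0011) at 3 days and −0.48 (adjusted P = 0.0008) at 7 days, 1.40-fold lower at both times. Those of C1qb were −0.46 (SE 0.061, adjusted P = 0.001) and −0.47 (adjusted P = 0.00062). C1qa was called at 1 day with the replicate block alone (−0.22, adjusted P = 0.042, against 0.063 without it). C1qb was also called at 1 day (−0.25, adjusted P = 0.035), where it lost the call without replicate 2 or replicate 3 (adjusted P up to 0.17). C1qc, on 10 spots per array, changed less: its ratios were −0.19, −0.25 and −0.22 at 3 days and −0.13, −0.16 and −0.35 at 7 days, with means of −0.22 and −0.21 (adjusted P = 0.036 and 0.035). Leaving out any 1 of the 3 arrays ended the call of C1qc at either time (adjusted P up to 0.15 at 3 days and 0.22 at 7 days).

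**Figure D2:**
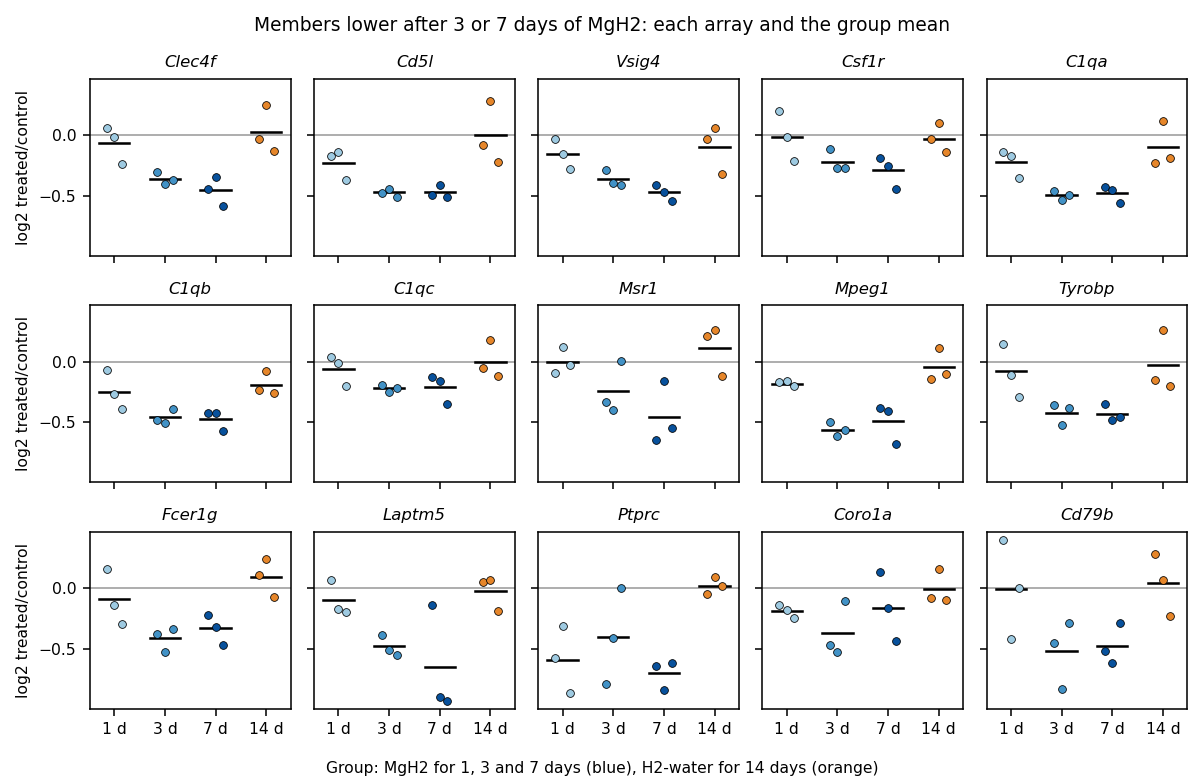
Log2 ratio of treated over control on the vertical axis for the 15 members called lower at 3 or 7 days, 1 panel per gene, by group on the horizontal axis. Points are single arrays and bars are means of 3 arrays. For Clec4f, Cd5l, C1qa, Mpeg1 and Tyrobp the arrays of 3 and 7 days lie below all arrays of 1 and 14 days. The genes shown were picked by these same ratios, and the share of all probes that separate so was not counted.

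Of the macrophage receptors and lysosomal proteins, Mpeg1 (perforin-2, a pore-forming protein of phagosomes) had the largest mean fall of this group at 3 days. Its ratios were −0.50, −0.61 and −0.56 at 3 days, −0.38, −0.41 and −0.68 at 7 days, −0.17, −0.16 and −0.20 at 1 day and −0.14, 0.11 and −0.10 at 14 days. The means were −0.56 (SE 0.0632, adjusted P = 0.00046) at 3 days and −0.49 (SE 0.0633, adjusted P = 0.00058) at 7 days. A second, dim probe of Mpeg1 (mean signal 45.2) gave −0.09 at 3 days (adjusted P = 0.693) and −0.50 at 7 days (adjusted P = 0.0231), so that the fall at 3 days rested on the bright probe alone.

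Csf1r, the receptor for colony-stimulating factor 1, measured −0.11, −0.27 and −0.27 at 3 days and −0.19, −0.25 and −0.44 at 7 days. At 1 day the values were 0.20, −0.01 and −0.21, and at 14 days −0.03, 0.10 and −0.14, so the groups overlapped in part. The mean of −0.29 at 7 days was called (SE 0.0784, adjusted P = 0.019), and that of −0.22 at 3 days was not (adjusted P = 0.073), except with the replicate block (adjusted P = 0.018). Without replicate 2 or replicate 3 the call at 7 days was lost (adjusted P up to 0.14). Its further probes gave −0.14 and −0.31 at 3 days and −0.12 and −0.29 at 7 days, and the last of these probes was called at both times.

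Msr1, the class A scavenger receptor for modified lipoproteins, had −0.33, −0.40 and 0.01 at 3 days and −0.65, −0.16 and −0.55 at 7 days. It was called at 7 days (−0.46, SE 0.109, adjusted P = 0.012), and without replicate 1 or replicate 3 it was not (adjusted P up to 0.087). A dimmer probe of Msr1 was called at 3 days (−0.57, adjusted P = 0.00603) and at 7 days (−0.83, adjusted P = 0.000641). Lyz2, the lysozyme of myeloid cells, averaged −0.27 at 3 days and −0.33 at 7 days (adjusted P = 0.12 and 0.055). Ctss, a cathepsin that processes antigen, averaged −0.16 and −0.15 (adjusted P = 0.29 and 0.28).

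Cd14, the co-receptor for bacterial lipopolysaccharide, averaged below 0 at 1 and 3 days and above 0 at 7 days. It measured −0.21, −0.05 and −0.51 at 1 day, 0.01, −0.04 and −0.30 at 3 days, and 0.51, 0.12 and 0.14 at 7 days. All 3 arrays were below 0 at 1 day and above 0 at 7 days. The mean of 0.26 at 7 days was not called (adjusted P = 0.082) except with the replicate block (adjusted P = 0.03). Gpnmb, a glycoprotein of lipid-laden macrophages, was not above background in either channel on any array.

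Among the genes that most leukocytes share, Tyrobp and Fcer1g encode the adaptor chains DAP12 and Fc receptor gamma. Tyrobp gave −0.36, −0.52 and −0.38 at 3 days and −0.35, −0.48 and −0.46 at 7 days, with means of −0.42 (SE 0.0939, adjusted P = 0.012) and −0.43 (adjusted P = 0.0079). Fcer1g gave −0.38, −0.53 and −0.34 at 3 days and −0.22, −0.32 and −0.47 at 7 days, with means of −0.41 (SE 0.0885, adjusted P = 0.0094) and −0.33 (adjusted P = 0.019). At 1 day both genes straddled 0, from 0.15 to −0.29 for Tyrobp and from 0.16 to −0.30 for Fcer1g, and at 14 days again, from −0.20 to 0.26 and from −0.07 to 0.24.

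Laptm5, a lysosomal membrane protein of blood cells, had −0.39, −0.51 and −0.55 at 3 days and −0.14, −0.90 and −0.93 at 7 days. The first array of 7 days stood apart from the other two. The means were −0.48 (SE 0.131, adjusted P = 0.025) and −0.65 (SE 0.131, adjusted P = 0.0051), and a second probe gave −0.50 and −0.67 (both called). Coro1a, an actin-binding protein, was called at 3 days alone (−0.47, −0.53 and −0.11, mean −0.37, SE 0.104, adjusted P = 0.03), while the 7-day values of 0.13, −0.16 and −0.44 averaged −0.16 (adjusted P = 0.29). Without replicate 1 or replicate 2 the 3-day call of Coro1a was lost (adjusted P up to 0.17).

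Ptprc, the leukocyte common antigen CD45, was dim, with a mean signal of 25.1. Its ratios were −0.58, −0.31 and −0.87 at 1 day, −0.79, −0.41 and 0.00 at 3 days, and −0.64, −0.84 and −0.62 at 7 days. After H2-water they were −0.05, 0.09 and 0.02, above all 9 MgH2 arrays but the third of 3 days. Ptprc was called at 1 day (−0.59, SE 0.133, adjusted P = 0.024) and at 7 days (−0.70, SE 0.132, adjusted P = 0.0037), and missed the threshold at 3 days (−0.40, adjusted P = 0.054). The call at 1 day was lost without replicate 1 or replicate 3 (adjusted P up to 0.13).

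After normexp background correction, whose offset of 50 draws dim probes toward 0, the mean of Ptprc at 7 days was −0.21 and that of Laptm5 −0.26. Msr1 was then −0.22 and Cd79b −0.14 at 7 days, and at 3 days Laptm5 was −0.18, Coro1a −0.22 and Cd79b −0.18. The bright members moved little, with −0.46 for Clec4f, −0.44 for Cd5l and −0.51 for Mpeg1 at 7 days.

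The catalytic subunit of the phagocyte oxidase, Cybb, averaged −0.14 at 3 days and −0.26 at 7 days (adjusted P = 0.7 and 0.41). Ncf1, its cytosolic partner, averaged −0.11 and −0.33 (adjusted P = 0.65 and 0.14) and was above background on 10 of 12 arrays. The gene of PU.1, Spi1, was above background in both channels on 3 of 12 arrays, and the tetraspanin Cd53 on 0. Neither of them was tested.

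The members that mark recruited monocytes and other CD11b or CD11c cells were hardly measured. Ccr2, the receptor for the chemokine Ccl2, and Itgax (CD11c) were each above background in both channels on 1 of 12 arrays. Itgam (CD11b) was measured by a probe with a mean signal of 902 and averaged 0.15 at 1 day, 0.05 at 3 days, −0.02 at 7 days and 0.10 at 14 days, with no call. The other 2 probes of Itgam had mean signals of 18.7 and 13.7 and were above background on 6 and 5 arrays, and signals of different probes do not give a level of the gene.

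Among lymphocyte members, Cd3e, a chain of the T cell receptor complex, had −0.17, −0.15 and −0.16 at 14 days and 0.09, 0.09 and 0.16 at 3 days. The first of these was called lower (mean −0.16, SE 0.0337, adjusted P = 0.019) and the second higher (mean 0.11, SE 0.0339, adjusted P = 0.038). Leaving out any 1 of the 3 arrays ended either call (adjusted P up to 0.12 at 14 days and 0.18 at 3 days), and with each channel divided by its total the 3-day value was not called (adjusted P = 0.12). Cd3d, another chain of the same complex, was at background, while the probe of Cd3e had a mean signal of 488.

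The cytotoxic granule gene Nkg7 averaged 0.11 at 3 days and 0.07 at 7 days on a probe with a mean signal of 829 (adjusted P = 0.079 and 0.26). With the replicate block Nkg7 was called higher at 3 days (adjusted P = 0.036). The other probe of Nkg7 had a mean signal of 7.76 and was above background on 1 array. Ccl5, a chemokine of T cells and macrophages, averaged −0.26 at 3 days and −0.38 at 7 days (adjusted P = 0.35 and 0.16). Its first array was above 0 at 1, 3 and 7 days, at 0.06, 0.06 and 0.15.

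Cd79b, a chain of the B cell receptor complex, was called lower at 3 days (−0.45, −0.83 and −0.29, mean −0.52, SE 0.152, adjusted P = 0.034) and at 7 days (−0.52, −0.62 and −0.29, mean −0.48, SE 0.153, adjusted P = 0.04). It was dim, with a mean signal of 34.2, and lost either call when any 1 of the 3 arrays was left out (adjusted P up to 0.21 and 0.17). Its partner chain Cd79a was above background on 3 of 12 arrays and was not tested, and Ms4a1 (CD20) was at background.

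Calls depended on single arrays in part, and at 3 days those of Clec4f, Tyrobp, Fcer1g and Laptm5 were among those lost. Without MgH2 3 days replicate 2, 5 of the 12 members called lower at 3 days kept the call, and these were Cd5l, Vsig4, C1qa, C1qb and Mpeg1. Without MgH2 7 days replicate 3, 9 of the 14 called at 7 days kept it, namely Clec4f, Cd5l, Vsig4, C1qa, C1qb, Mpeg1, Tyrobp, Laptm5 and Ptprc. The fit of the 3-day arrays alone called 5 members lower, which were C1qa, C1qb, Cd5l, Mpeg1 and Laptm5 (adjusted P from 0.035 to 0.049).

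Both channels were also examined separately, as the log2 level of a gene against the median probe of its array. The control level of Clec4f was 2.85 at 1 day and 2.82 at 3 and 7 days, while its level in the treated pools was 2.78, 2.46 and 2.37. Mpeg1 stood at 2.66 in the controls of all 3 times and at 2.47, 2.10 and 2.16 in the treated pools. Over the 11 members called lower at both 3 and 7 days, the control level ranged over the 3 times by 0.00 to 0.19 (median 0.03) and the treated level by 0.20 to 0.69 (median 0.32). These 11 were picked by their ratios on the same arrays, and the ranges over all probes were not computed. Control pools shared between the times would also give level controls.

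The control signals of equally numbered MgH2 arrays deviated together, with r from 0.322 to 0.671 over 9 pairs, against −0.485 to 0.091 over 18 pairs of different numbers. The labels name a control for each time. Whether the control pools of 1, 3 and 7 days came from the same mice is not given in the sources used here, so the 3 comparisons may share their controls, and calls made at more than 1 time do not stand for independent tests.

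The 14-day controls differed on this scale from the controls of the gavage arrays, in both directions. Clec4f stood at 1.93, Cd5l at 3.03 against 3.95 to 3.98, C1qa at 0.25 against 1.29 to 1.35, and Mpeg1 at 1.54 against 2.66. Adgre1 stood at −0.61 against −0.56 to −0.61. Itgam was higher in the 14-day controls, at 1.98 against 0.38 to 0.63, as were Nkg7, at 1.77 against 0.42 to 0.50, and Cd3e, at 0.59 against −0.16 to 0.23. The route, the control agent, the slide and the software version all differed between these arrays, and their parts cannot be told apart.

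**Figure D3:**
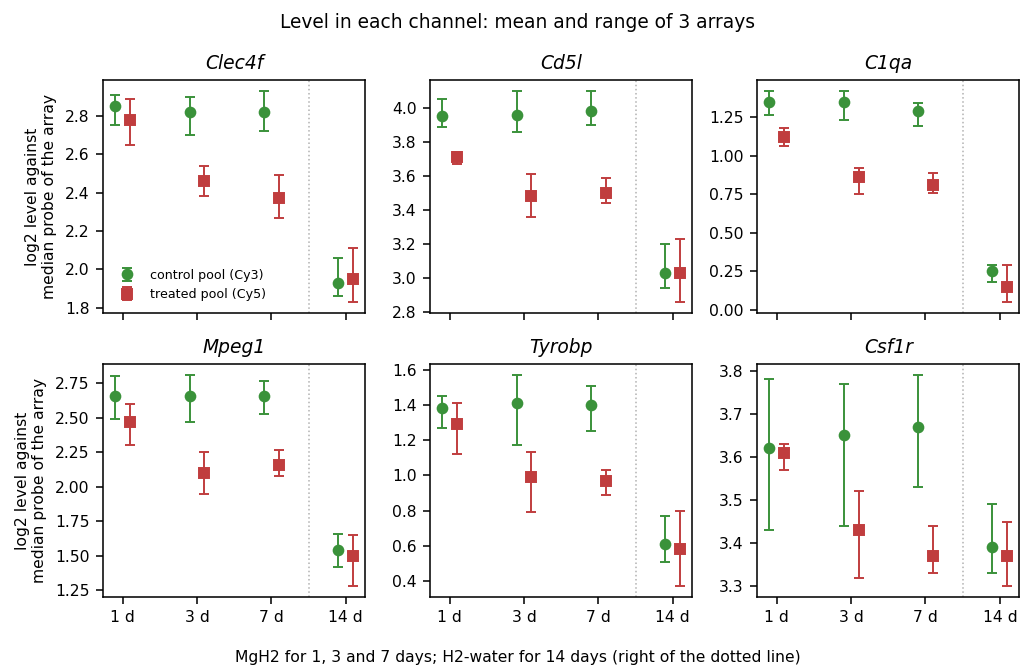
Log2 level of 6 members relative to the median probe of the array (vertical axis) in the control pool (green circles, Cy3) and the treated pool (red squares, Cy5), by group; symbols are means and bars the range of 3 arrays. Control levels stay flat from 1 to 7 days while treated levels at 3 and 7 days lie below them, and at 14 days both channels lie close together. The 6 members were called lower at 7 days on these same arrays, and the MgH2 times may share their controls.

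The ratios of different times were then compared with each other, which cancels a constant dye bias of a probe. Between 3 and 1 day 0 of 27 members were called (lower in 0.0052% and higher in 0.0156% of all probes), although 7 members were lower and 0 higher at an unadjusted P under 0.05 (7.64% and 7.77% of all probes). Among these Mpeg1 differed by −0.38, C1qa by −0.27 and Clec4f by −0.29. The median difference of the members was −0.21, and within the slide that held the 1-day arrays and the first 3-day array it was −0.23.

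Between 7 and 1 day 0 of 27 were called by limma without the block (lower in 3.69% and higher in 3.26% of all probes), with 10 lower and 1 higher at an unadjusted P under 0.05 (12.1% and 13.1% of all probes). With the replicate number as a block, 5 were called lower and 1 higher, and the share of all probes called under this fit was not counted. The lower genes were Clec4f (−0.39, adjusted P = 0.026), Vsig4 (−0.32, adjusted P = 0.025), Csf1r (−0.29, adjusted P = 0.043), Mpeg1 (−0.32, adjusted P = 0.043) and Laptm5 (−0.56, adjusted P = 0.037), and the higher one was Cd14 (0.52, adjusted P = 0.023). No slide held arrays of both times, since the 7-day arrays lay on other slides than the 1-day arrays, so slide and time cannot be told apart here. The median difference was −0.24.

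Between 7 and 3 days 0 of 27 members were called, as were 0% of all probes in either direction. At an unadjusted P under 0.05, limma gave 1 member higher (Cd14, 0.37) and 0 lower, where 2% of all probes were higher and 2.73% lower. The median difference was −0.045, and 0.02 within the slide that held arrays of both times.

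After 14 days of H2-water the members were compared with 7 days of MgH2. The ratio was called higher at 14 days for 6 of 26 members (3.46% of all probes) and lower for 1 (3.15%), with a median difference of 0.39. The 6 were Clec4f (0.48, adjusted P = 0.033), Cd5l (0.47, adjusted P = 0.039), Vsig4 (0.37, adjusted P = 0.049), C1qa (0.38, adjusted P = 0.041), Mpeg1 (0.45, adjusted P = 0.023) and Ptprc (0.72, adjusted P = 0.048), and the lower one was Cd3e (−0.22, adjusted P = 0.03). In each of these 7 genes, which were picked by the test of this same difference, the 14-day arrays did not overlap with those of 7 days. The share of all probes without overlap was not counted.

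The count of members called higher rested on single arrays. It was 0 without H2-water 14 days replicate 2, 0 without MgH2 7 days replicate 3, and 1 to 3 without any one of the others. The fit of these 6 arrays alone called 1 member higher (Ptprc). The agent, the time, the controls, the slide and the software version differ together between the groups and cannot be told apart.

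**Figure D4:**
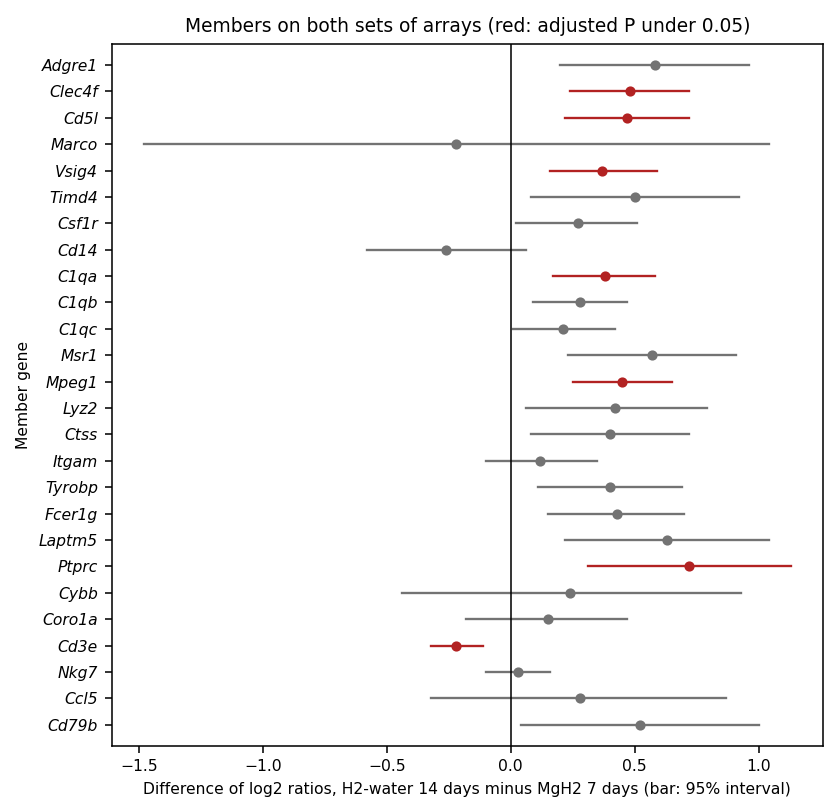
Difference of the log2 ratio between 14 days of H2-water and 7 days of MgH2 (horizontal axis) for the 26 members above background on all these arrays; points are estimates of limma and bars 95% intervals. Red marks an adjusted P under 0.05, which holds for 6 genes above 0 and for Cd3e below 0.

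The second array of the 14-day group stood higher than its partners for most macrophage members. Its median over the Kupffer cell identity genes was 0.36, where the lowest array had −0.08. Over all 26 members tested the array medians at 14 days ran from −0.12 to 0.16. At 3 days they ran from −0.40 to −0.30 and at 7 days from −0.44 to −0.23, so that all 6 of these arrays lay below the 3 of H2-water.

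Further genes of the same and of other cells were examined from 15 lists. Their counts stand beside 11.1% of all probes called lower and 12.3% higher at 3 days, and 14.2% lower and 15.3% higher at 7 days. Of 24 further resident macrophage genes on the array, 7 of the 22 tested were called lower at 3 days and 1 higher (Maf, 0.16), and 10 of 21 were called lower at 7 days. The largest falls were those of Aif1, an actin-binding protein of macrophages (−0.62 and −0.74), Slc11a1, a metal transporter of phagosomes (−0.44 and −0.47), and at 7 days the folate receptor Folr2 (−0.47). The median of this list was −0.058 at 1 day, −0.14 at 3 days, −0.22 at 7 days and 0.034 at 14 days.

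Of the monocyte and lipid-associated macrophage genes, 4 of 16 were called lower at 3 days and 3 of 16 at 7 days, the latter near the share of all probes. They included Plac8 (−0.83 and −0.81), the fractalkine receptor Cx3cr1 (−0.54 and −0.89) and the fatty acid binding protein Fabp5 (−0.49 and −0.84). At 14 days 1 of 17 was called higher, which was Lpl, the gene of lipoprotein lipase (0.48). The neutrophil granule genes S100a8 (−0.68 and −0.97) and S100a9 (−1.13 and −1.36) were called lower at 3 and 7 days and Camp at 7 days (−0.64), out of 6 neutrophil genes tested. The neutrophil genes Cxcr2, Ltf, Ngp and Mmp8 were at background on all 12 arrays.

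Among T and NK cell genes, the co-receptor Cd4 (0.28 and 0.20), the kinase Zap70 (0.47 and 0.29) and the granzyme Gzmk (0.19 and 0.34) were called higher at 3 and 7 days. They were 3 of 7 genes tested at 3 days and 3 of 6 at 7 days, out of 24 on the array, so most of this list was not measured. Of the chemokines and cytokines, 5 of 12 were called lower at 3 days and 5 of 12 at 7 days, among them Cxcl9 (−0.98 and −0.80), Cxcl1 (−0.98 and −0.91) and, at 3 days, Ccl2, the ligand of Ccr2 (−0.71, adjusted P = 0.015).

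Of the growth factors and transcription factors of macrophages, Csf1, the ligand of Csf1r, was called lower at 3 days (−0.38, adjusted P = 0.032) and at 7 days (−0.42, adjusted P = 0.017). Cebpa, which hepatocytes express as well, was called lower at both times (−0.48 and −0.50) and also at 1 day (−0.30, adjusted P = 0.0029) and after H2-water (−0.23, adjusted P = 0.01), and Klf4 was called higher at both (0.64 and 0.85). In this list 3 of 11 genes were called lower and 1 higher at 3 days, and 4 of 11 lower and 1 higher at 7 days.

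Lists of markers of other liver cells were set beside the members on the same arrays. The summed signal of the 27 members, as a log2 ratio of treated over control, ran from −0.26 to 0.00 over the 3 arrays at 1 day, from −0.35 to −0.30 at 3 days, from −0.44 to −0.31 at 7 days and, for 26 members, from −0.12 to 0.18 at 14 days. That of the hepatocyte genes ran from −0.04 to 0.09, from 0.03 to 0.18, from 0.09 to 0.23 and from −0.03 to 0.03 at the same times. For the further resident macrophage genes, of which Ctsb was bright (mean signal 26000), it ran from −0.05 to −0.04 at 3 days and from −0.06 to 0.02 at 7 days. The neutrophil sum ran from −0.37 to 0.12 and from −0.36 to 0.10 at these times. The monocyte and lipid-associated macrophage sum ran from −0.20 to 0.10 and from −0.10 to 0.11, and the dendritic sum from −0.40 to −0.23 and from −0.77 to −0.40. A sum follows its brightest genes and says little of the dimmer ones. In the neutrophil list these were Csf3r (mean signal 13700) and Lcn2 (6110), against 258 for S100a9. Fn1 (48800) was the brightest of the monocyte list, and Siglech (12800) and Ly6d (8210) of the dendritic list. Of 10 hepatocyte genes 3 were called higher at 3 days and 4 at 7 days, with Alb at 0.25 and 0.41.

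Stellate cell genes were called lower in 4 of 9 at 3 days and in 4 of 10 at 7 days, with Col3a1 at −0.54 and −0.42 and Lrat, which esterifies retinol for storage, at −0.47 and −0.44. Their summed ratio ran from −0.30 to −0.10 at 3 days and from −0.23 to −0.03 at 7 days. Of 12 sinusoidal endothelial genes, 2 were called higher and 1 lower at 3 days, and 1 higher and 3 lower at 7 days, counts near the shares of all probes at 3 days. Lyve1, the hyaluronan receptor of these cells, rose by 0.58 and 0.68, and the lectin gene Clec4g fell to −0.24 and −0.35. The summed ratio of the endothelial genes ran from −0.10 to 0.00 at 3 days and from −0.19 to −0.07 at 7 days.

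Of 4 dendritic cell genes tested, out of 9 on the array, the transcription factor gene Batf3 (−0.50 and −0.53) and Ly6d (−0.56 and −1.45) were called lower at 3 and 7 days. Zbtb46 was called higher (0.49 and 0.31). The mean signals were 45.4 for Batf3, 8210 for Ly6d and 48.0 for Zbtb46. Xcr1, Clec9a and Cd209a were at background on all 12 arrays, so most of this list was not measured. Which cells gave the signal of Ly6d was not tested. The cholangiocyte list had 1 of 5 genes called lower at 3 days (Spp1, −0.32) and the pancreas acinar list 1 of 3 (Ctrb1, −0.11). Of 6 erythroid genes tested, Alas2, which makes the first enzyme of heme synthesis in red cells, was the 1 called, at 3 days (−0.56), at 7 days (−0.70) and after H2-water (−0.41, adjusted P = 0.023). The summed ratio of the erythroid genes straddled 0, from −0.34 to 0.60 at 3 days, from −0.83 to 0.64 at 7 days and from −0.47 to 0.55 at 14 days. Of 4 adipocyte genes tested, Car3 was called lower at 3 and 7 days (−0.47 and −0.47) and Cfd at 7 days (−2.42). The summed ratio of the 4 ran from −0.71 to −0.17 at 3 days and from −0.66 to −0.14 at 7 days. This sum follows Car3, the brightest of them (mean signal 87000). The part of any of these cells in the ratios of the members was not tested.

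**Figure D5:**
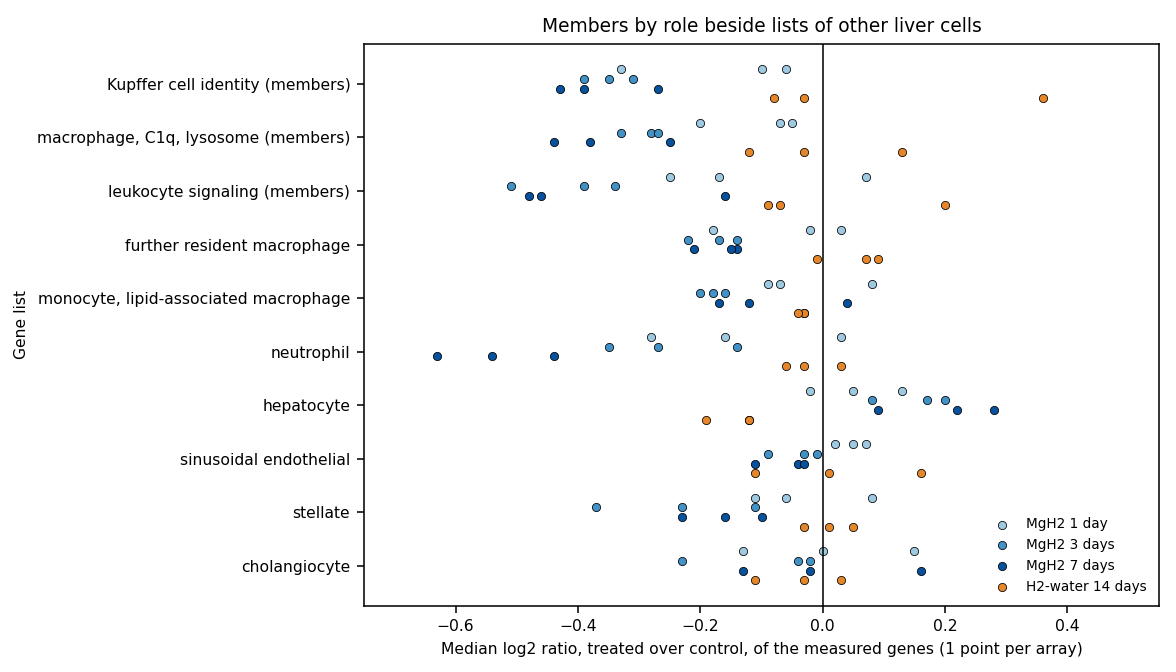
Median log2 ratio of treated over control (horizontal axis) of the measured genes of 3 role groups of the members and of 7 lists of other genes, with 1 point per array colored by group. At 3 and 7 days the points of the 3 member groups lie below 0. So do those of the further resident macrophage, neutrophil, stellate and sinusoidal endothelial lists, the last close to 0, while the hepatocyte points lie above 0.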

How the data were processed

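Liver RNA of db/db mice was measured on 12 two-color Agilent arrays, with 3 arrays per group. The intensity values are background-subtracted and corrected for dye with linear and lowess fits, as deposited by the authors from Feature Extraction (10.10.1 by the processing notes; 10.7.3.1 at 14 days and 10.10.1.1 for MgH2 by the file headers). The raw median signal and background intensities were deposited as well and served for one alternative. The authors also deposited a log10 ratio per spot, and a table of log2 values that equals it within 1.4e-06 on the log2 scale. The array has fewer features than the format named in the methods.

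Spots flagged as outliers and control spots were left out. The log2 ratio of the processed signals was averaged over the spots of a probe, with no rescaling between arrays. Of 39429 probes, 26761 have a symbol by their RefSeq record, and no genome build was used for them. For the spots of each array 51.8% to 56.5% were above background. The number of arrays limits the precision. A probe entered a test only where every array compared measured it well above background, in Cy3 and in Cy5. limma 3.58.1 in R 4.3.3 fitted a mean per group over all 12 arrays, two-sided, with Benjamini-Hochberg adjustment over all tested probes, for 8 comparisons. The p values measure the spread between pools of 3 mice.

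Between arrays of 1, 3 and 7 days with equal replicate numbers the ratios correlate (r from 0.368 to 0.655 over 9 pairs). So do the Cy3 signals of the controls (r from 0.322 to 0.671), while for the Cy5 signals of the treated pools r ran from −0.296 to 0.176. The main fit ignores the replicate number, and the block is an alternative fit. Other alternatives were normexp with an offset of 50, division by channel totals, median centering, no filter, all probes of a gene averaged, fewer arrays, slide as a random block, the deposited table and the methods' t-test. All members could be named, and from each other list at most the 3 called genes with the largest ratios. Maf, the genes named at background and those named for the brightest signals of a list were added after their values were seen. The members, lists and tests were chosen with earlier results of these data known. The fit was tested on simulated data.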

Additional observations from a re-analysis of the deposited data

Results flagged for a closer look

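For 7 members the ratio differed between 14 days of H2-water and 7 days of MgH2 by limma's test of the difference. The difference of log2 ratios was 0.48 for Clec4f (adjusted P = 0.033), 0.47 for Cd5l (0.039), 0.37 for Vsig4 (0.049), 0.38 for C1qa (0.041), 0.45 for Mpeg1 (0.023) and 0.72 for Ptprc (0.048), and −0.22 for Cd3e (0.03). Agent, time, controls, slide and software version differ together between these groups.

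Of these genes, Cd3e was above 0 on all 3 arrays at 7 days and below 0 on all 3 at 14 days. Among members not called between the groups compared, 2 likewise had every array of one group on one side of 0 and every array of the other on the opposite side. The share of all probes that did so was not counted. On its brighter probe, Adgre1 was above 0 on all 3 arrays at 14 days and below 0 on all 3 at 7 days, a difference of 0.58 that limma's test did not call (adjusted P = 0.071). Its dimmer probe averaged −0.09 at 14 days, and its difference of 0.51 was called (adjusted P = 0.0387). Cd14 was below 0 on all 3 arrays at 1 day and above 0 on all 3 at 7 days, a difference of 0.52 that was likewise not called (adjusted P = 0.058).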

How the results depend on the processing

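Over all alternatives, 2938 values of single members kept their direction and side of the threshold, 154 lost the call, 65 gained it, and 0 called values changed sign. Median centering and the deposited table changed no call. With the replicate block, members called lower at 1 day went from 2 to 4, those higher at 3 days from 1 to 2 and at 7 days from 0 to 1, those lower at 3 days from 12 to 14, and between 7 and 1 day from 0 to 5 lower and 1 higher, and no other count within the MgH2 times changed. The ratios of equal numbers of 7 and 14 days correlated weakly (r from 0.035 to 0.287 over 3 pairs, against −0.26 to 0.029 for different numbers). Whether these arrays pair is not given in the sources used here, and the block there gave 11 higher in place of 6. Slide as a random block gave 10 there, and 3 lower and 1 higher between 7 and 1 day. The correlation within slides in these fits was below 0 (−0.0791 and −0.0823), which makes the standard errors smaller. No slide held arrays of both groups compared, so this fit does not separate slide from group. Fits of only the arrays compared called 0 lower at 1 day, 5 lower and 0 higher at 3 days, 0 at 14 days, and 1 higher and 0 lower between 14 and 7 days. Without the filter on dim probes 0 were called lower at 1 day, 0 higher at 3 days and 0 lower at 14 days. Normexp called 1 member higher at 1, 7 and 14 days each, 2 higher at 3 days and 2 lower between 7 and 1 day, with medians of −0.18 at 3 days and −0.21 at 7 days. Channel totals called 0 higher at 3 days. Averaging all probes of a gene gave a median of −0.36 at 3 days and 2 lower between 7 and 1 day. The methods' t-test at an unadjusted P under 0.05 gave 4 lower at 1 day, 6 lower and 0 higher at 3 days and 0 at 14 days, and 0 at any time after adjustment. Without 1 array, members called lower were 0 to 1 at 1 day, 5 to 9 at 3 days, 9 to 12 at 7 days, 0 at 14 days and 0 to 1 between 7 and 1 day. Members called higher were 0 at 3 days, and between 14 and 7 days 0 to 3 were higher and 0 to 1 lower. The median at 3 days then ran from −0.34 to −0.27. The share of all probes called was not counted under these alternatives, except for genes higher by the methods' t-test at 1, 7 and 14 days. The causes of these changes were not tested.

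Signal over background limits the leukocyte members, since 9 of 36 were tested at no time.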
